A study of Mus musculus with 56 samples.

Results

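Gene expression was compared in the gastrocnemius muscle of 14 female mice given running wheels, 7 labelled as HuR skeletal muscle knockouts (HuRm-/-) and 7 labelled as controls. The mice were taken by their labels alone and made up 14 of the 56 mice of the series, which had 8 groups of 7 by sex, genotype and running or locked wheel. All were of the C57Bl/6 strain, ate chow and had access to the wheel from 10 to 20 weeks of age, and the labels also give an age of 5 months. The study's methods describe HuRm-/- mice as carrying floxed Elavl1 alleles with Cre recombinase under the Mlc1f promoter, a promoter of the Myl1 gene that is active in skeletal muscle fibres, and controls as floxed littermates (HuRfl/fl), so the floxed alleles are shared by both groups and cells other than muscle fibres are not the target of the Cre. The running distance of each mouse was not used here.

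HuR, the protein product of Elavl1, binds AU-rich and U-rich stretches of RNA, mainly in 3′ untranslated regions (UTRs), and is known for stabilising the messages it binds. The gastrocnemius of the mouse is a mixed muscle in which fast glycolytic fibres predominate and slow oxidative fibres are the minority. Endurance running is known to draw on glycogen, fatty acid oxidation and mitochondrial capacity, and the study asked how loss of HuR bears on metabolism in this tissue.

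The genes on which the comparison turns are shown first by sequence. The promoter windows are those of Selenow and Asb12, which fell in the HuRm-/- mice, and of Myl1, the gene whose Mlc1f promoter drives the Cre (the table does not say which Myl1 promoter its window is). Each window runs from 250 bases before to 50 bases after a RefSeq transcript start on the GRCm38.p6 build and is written 5′ to 3′ on the strand of the gene, with the E-box CANNTG, the core motif of MyoD-family factors, in capitals. The Selenow window is at chr7:15922322-15922621 on the minus strand, the Asb12 window at chrX:95478080-95478379 on the minus strand and the Myl1 window at chr1:66945007-66945306 on the minus strand.
Selenow: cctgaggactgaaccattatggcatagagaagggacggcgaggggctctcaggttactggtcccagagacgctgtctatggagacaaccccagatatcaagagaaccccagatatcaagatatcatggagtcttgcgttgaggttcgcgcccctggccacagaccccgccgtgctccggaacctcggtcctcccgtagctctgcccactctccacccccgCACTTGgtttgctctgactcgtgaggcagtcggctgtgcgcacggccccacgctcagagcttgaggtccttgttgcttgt
Asb12: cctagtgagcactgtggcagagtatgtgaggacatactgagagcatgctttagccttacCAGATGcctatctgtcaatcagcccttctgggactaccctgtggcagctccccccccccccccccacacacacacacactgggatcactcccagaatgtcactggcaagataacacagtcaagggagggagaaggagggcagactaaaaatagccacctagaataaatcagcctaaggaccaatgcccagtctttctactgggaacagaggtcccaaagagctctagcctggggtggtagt
Myl1: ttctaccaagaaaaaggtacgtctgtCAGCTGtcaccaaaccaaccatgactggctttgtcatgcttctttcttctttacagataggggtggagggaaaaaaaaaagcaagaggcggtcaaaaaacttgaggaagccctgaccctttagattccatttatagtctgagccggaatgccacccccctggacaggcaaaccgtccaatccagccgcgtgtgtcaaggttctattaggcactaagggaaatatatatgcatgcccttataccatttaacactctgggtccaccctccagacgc
The motif CANNTG reads the same on both strands, and each of these windows held 1 match, which in Myl1 was CAGCTG. Of 32851 promoter windows of the same length, from 27025 genes, 72.3% held CANNTG and 16.3% held CAGCTG.

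The AU-rich element core ATTTA was searched on the transcript strand of the 3′ UTRs in the GENCODE M21 annotation of GRCm38. It was found in the 3′ UTRs of 2 of the 6 genes that fell, Ccdc91 and Zdbf2, and 1 site of each is shown with ATTTA in capitals, on the plus strand at chr6:147632151-147632175 for Ccdc91 and at chr1:63310091-63310115 for Zdbf2.
Ccdc91: gtagccatgcATTTActtgattcta
Zdbf2: ttttatattcATTTAaaattagtgt
Ccdc91 held 3 such sites in 927 bases and Zdbf2 held 24 in 4631 bases, or 5.18 per kilobase, a density at percentile 95.8 of the tested genes. The 3′ UTRs of Selenow (347 bases), Aes (669 bases) and Asb12 (135 bases) held 0 ATTTA, and Gm37829 has no annotated 3′ UTR. Of 12268 tested genes with a 3′ UTR, 71.6% held the motif, with a median density of 1.25 per kilobase. A match of letters is not a binding site.

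The 14 libraries held between 6639782 and 16690059 counts. Controls were sequenced less deeply, with a median of 10129311 counts against 13327077 in HuRm-/- mice, and 3 controls (mice 25, 5 and 9) had the fewest counts of the 14. The depth difference lies in the same direction as the label, and its part in the results was not tested beyond the fits given in the closing section. The counts were scaled by library size and TMM factors (a normalisation that assumes most genes do not differ), and levels below are these normalised counts, called CPM, in which each library has the same total before the TMM factor. The sums and means of marker lists are the exception, as they were scaled by library total alone. On that scale the median log2 difference over all genes (HuRm-/- minus control) was 0.093, against 0.009 with TMM. Marker sums and means therefore lie somewhat higher in HuRm-/- mice than they would with TMM. The labels name a library kit that reads the 3′ end of messages, so CPM values were compared between mice for a gene and not between genes. The 10 skeletal muscle markers were at high levels in every mouse, with a summed level between 106500 and 142800 CPM, whereas the summed islet, keratinocyte and heart markers did not exceed 5.36, 9.53 and 13.3 CPM.

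Elavl1, the targeted gene (ENSMUSG00000040028, chr8:4285382-4325413, minus strand), was not lower in the mice labelled HuRm-/-. It ranged from 50.2 to 62.8 CPM in controls, with a median of 52.8, and from 49.8 to 63.7 CPM in mice labelled HuRm-/-, with a median of 53.7. The groups overlapped across almost their whole ranges. The log2 fold change (HuRm-/- minus control) was 0.01 ± 0.13 (SE), an estimated level of 100.6% of control with a 95% confidence interval of 83.8% to 120.8% (limma adjusted p = 0.986; exact permutation test over 7 and 7 mice, two-sided p = 0.903). The labels name a 3′ kit and the methods a total RNA kit, which exon is floxed is not given in the sources used here, and Ccl25 overlaps Elavl1 on the opposite strand with no stated strand setting. Whether the counted reads come from inside the deleted stretch is therefore not known, and the count neither shows nor excludes a deletion. Every direction below therefore rests on the labels of the mice and not on a measured loss of Elavl1 RNA.

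Myl1, which encodes the fast-fibre essential myosin light chains (ENSMUSG00000061816, chr1:66924295-66945404, minus strand), was lower in the mice labelled HuRm-/-. It ranged from 7707 to 10580 CPM in controls, with a median of 9612, and from 3994 to 8628 CPM in HuRm-/- mice, with a median of 5133. The log2 fold change was -0.68 ± 0.16 (SE), and 5 of the 7 HuRm-/- mice were below every control. The limma adjusted p of 0.0555 was just past the 0.05 limit, so Myl1 was not called. The study's methods do not state where the Cre is inserted, so whether it alters the Myl1 gene itself is not known.

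The HuRm-/- mice did not form an even group at Myl1 and at several other genes. Myl1 was at 8337, 7567 and 8628 CPM in HuRm-/- mice 10, 3 and 7 and at 3994, 5133, 4245 and 4712 CPM in mice 2, 21, 22 and 8. Chrna1, the alpha subunit of the muscle acetylcholine receptor, was at 29.5, 35.7 and 25.1 CPM in mice 10, 3 and 7 and between 49.4 and 61.8 CPM in the other 4, against a control range of 18.7 to 31.5 CPM. Mice 10, 3 and 7 thus lay nearer the controls than the other 4 at both genes. Not every gene followed this split. Selenow was at 184 and 172.8 CPM in mice 3 and 7, within the 142.7 to 194.9 CPM of the other 4, although mouse 10 was highest at 214.9 CPM. Zdbf2 was lowest, and so farthest from the controls, in mouse 10 at 0.41 CPM. Whether mice 10, 3 and 7 carry the Cre or the label that belongs to them was not tested. All 7 were kept in the group their labels give, so every group value below carries that doubt. Leaving out HuRm-/- mouse 10 raised the number of genes called from 6 to 157, leaving out mouse 7 raised it to 97 and leaving out mouse 3 to 19. A rise was not particular to these mice, as leaving out control 25 gave 37 and control 9 gave 10.

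With limma and a limit of 0.05 on the Benjamini-Hochberg adjusted p, 6 of 13531 genes tested were called (0.0443%), of which 0 rose and 6 fell in the HuRm-/- mice. At an unadjusted p under 0.05, 1007 genes were higher (7.44%) and 999 were lower (7.38%), and the median log2 fold change over all genes was 0.01. The small number of calls sits at a steep edge, since 39 further genes (22 higher and 17 lower) had an adjusted p between 0.05 and 0.06 and 230 had an adjusted p of 0.1 or less. Groups without any overlap were seen for 20 higher genes (0.148%) and 27 lower genes (0.200%).

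Selenow encodes selenoprotein W, a small redox protein abundant in muscle (ENSMUSG00000041571, chr7:15917208-15922402, minus strand), and it had the smallest p. It ranged from 213 to 291 CPM in controls, with a median of 262, and from 143 to 215 CPM in HuRm-/- mice, with a median of 175. Of the HuRm-/- mice, 6 were below every control, and mouse 10 just entered the control range. Selenow fell to 70.7% of the control level (95% confidence interval 62.6% to 79.9%; log2 fold change -0.50 ± 0.09 SE, limma adjusted p = 0.0235).

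Asb12, a muscle member of the ankyrin repeat and SOCS box family of ubiquitin ligase adaptors (ENSMUSG00000031204, chrX:95470201-95557987, minus strand), separated the groups fully. It ranged from 15.1 to 22.7 CPM in controls (median 18.5) and from 11.7 to 14.8 CPM in HuRm-/- mice (median 12.6), and it fell to 69.4% of control (log2 fold change -0.53 ± 0.11 SE, adjusted p = 0.0493). Zdbf2, an imprinted gene for a DBF-type zinc finger protein (ENSMUSG00000027520, chr1:63273265-63314576, plus strand), also had no overlap. It ranged from 1.20 to 2.62 CPM in controls (median 2.07) and from 0.410 to 1.06 CPM in HuRm-/- mice (median 0.874), and fell to 42.9% of control (95% confidence interval 30.2% to 60.8%; log2 fold change -1.22 ± 0.25 SE, adjusted p = 0.0493). Zdbf2 rested on 6 to 37 counts a mouse, the fewest of the 6 genes, so its fold change is the least precise of them. It lies within 5 Mb of Myl1 on chromosome 1.

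Aes encodes a short member of the Groucho/TLE family of transcriptional corepressors (ENSMUSG00000054452, chr10:81559488-81566362, plus strand). It ranged from 226 to 287 CPM in controls (median 248) and from 138 to 243 CPM in HuRm-/- mice (median 169), with mouse 10 alone inside the control range, and fell to 71.9% of control (log2 fold change -0.48 ± 0.09 SE, adjusted p = 0.0493). Ccdc91, a coiled-coil protein that partners the GGA adaptors of the trans-Golgi network (ENSMUSG00000030301, chr6:147475828-147632612, plus strand), ranged from 55.3 to 73.7 CPM in controls (median 65.2) and from 41.8 to 58.9 CPM in HuRm-/- mice (median 46.4). It fell to 73.6% of control (log2 fold change -0.44 ± 0.09 SE, adjusted p = 0.0493), and 6 of 7 HuRm-/- mice were below every control. Gm37829, an unclassified transcript (ENSMUSG00000104453, chr7:81530309-81532521, minus strand), ranged from 30.6 to 38.6 CPM in controls (median 35.6) and from 21.3 to 31.1 CPM in HuRm-/- mice (median 24.9). It fell to 71.0% of control (log2 fold change -0.50 ± 0.10 SE, adjusted p = 0.0493). The long noncoding RNA 2900076A07Rik overlaps Gm37829 on the opposite strand, and without a stated strand setting their reads cannot be told apart.

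**Figure D1:**
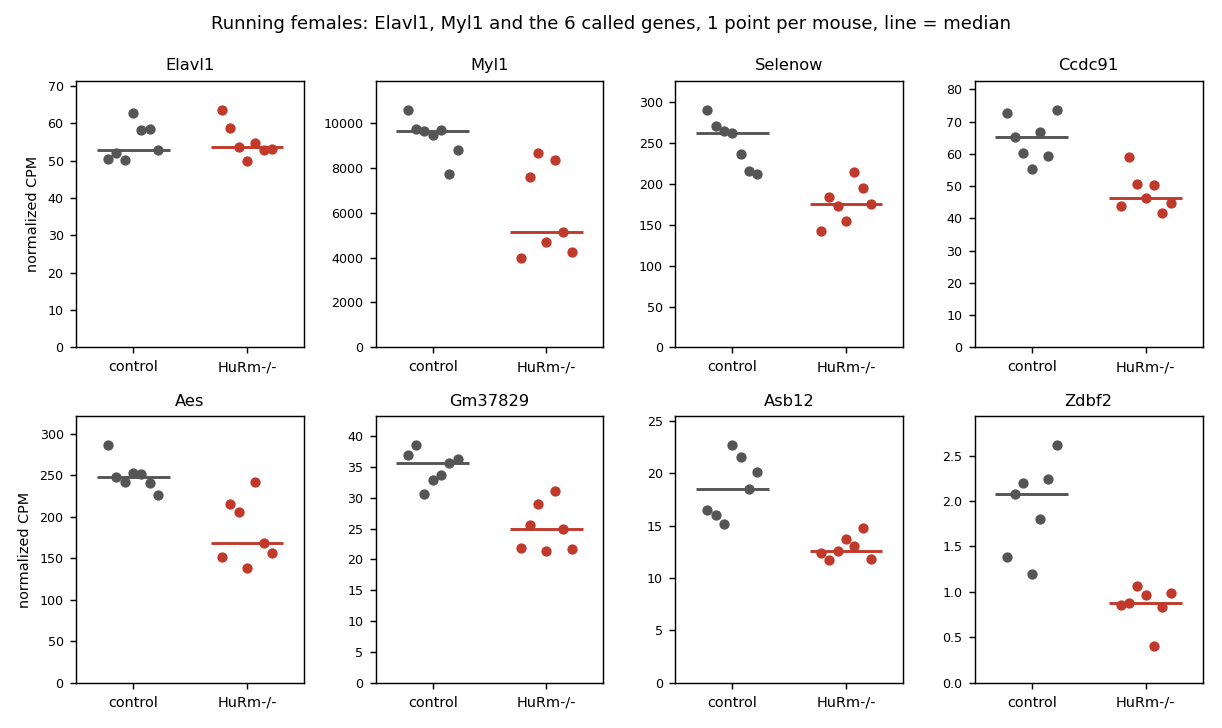
Normalised CPM (vertical axes from 0) of Elavl1, Myl1 and the 6 called genes in 7 control (grey) and 7 HuRm-/- (red) running females, with 1 point per mouse and a line at the median. Elavl1 overlaps across the groups, Asb12 and Zdbf2 do not overlap, and the other called genes each have 1 HuRm-/- mouse inside the control range.

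The next genes by p were not called, with adjusted p from 0.0505 to 0.0553, and are given by value. Among lower genes, Gstm2, a mu-class glutathione S-transferase, ranged from 42.6 to 61.1 CPM in controls and from 32.8 to 40.9 CPM in HuRm-/- mice without overlap (log2 fold change -0.38). Phkg1, the catalytic subunit of muscle phosphorylase kinase that turns on glycogen breakdown, ranged from 163 to 192 CPM in controls (median 172) and from 126 to 165 CPM in HuRm-/- mice (median 139). Its log2 fold change was -0.32 ± 0.07 (SE), and 6 of 7 HuRm-/- mice were below every control. Kcmf1, a ubiquitin ligase, had a log2 fold change of -0.45 (medians of 200 and 139 CPM), and Narf, which binds prelamin A, one of -0.42 (medians of 74.0 and 51.2 CPM). HuRm-/- mouse 10 was the highest of its group at Phkg1, Kcmf1 and Narf. Phkg1 overlaps several other genes in the table and Kcmf1 overlaps D530018E20Rik, so their counts carry that uncertainty.

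None of the 10 higher genes of smallest p was called. Aif1l, an actin-binding calcium-sensor relative, ranged from 2.58 to 4.10 CPM in controls and from 4.33 to 6.37 CPM in HuRm-/- mice (log2 fold change 0.67). Anxa1, the phospholipid-binding protein annexin A1, ranged from 6.81 to 12.5 CPM in controls and from 13.1 to 18.2 CPM in HuRm-/- mice (log2 fold change 0.68, adjusted p = 0.0551). Csf1, the growth factor of macrophages, ranged from 8.43 to 12.2 CPM in controls (median 8.85) and from 12.2 to 15.6 CPM in HuRm-/- mice (median 13.3), with a log2 fold change of 0.47. These 3 genes did not overlap between the groups. Gpc3, a cell-surface heparan sulphate proteoglycan, and Smoc2, a secreted matrix protein, had log2 fold changes of 0.52 and 0.40. Smoc2 ranged from 106 to 135 CPM in controls and from 134 to 170 CPM in HuRm-/- mice, 6 of which were above every control.

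Fbxo30, the ubiquitin ligase subunit known as MUSA1 for its role in muscle atrophy, ranged from 5.44 to 9.69 CPM in controls and from 9.501 to 12.1 CPM in HuRm-/- mice (log2 fold change 0.54). Tiparp, a mono-ADP-ribosyltransferase, had medians of 50.1 and 72.3 CPM (log2 fold change 0.56). The largest fold change of the 10 higher genes was that of the transcription factor Mycn, at 1.96 ± 0.41 (SE) on the log2 scale, with 0.369 to 4.85 CPM in controls and 1.89 to 7.96 CPM in HuRm-/- mice. Only 2 of the 7 HuRm-/- mice were above every control at Mycn, which rested on 4 to 107 counts a mouse. The antisense transcript B230369F24Rik ranged from 0.553 to 2.24 CPM in controls and from 2.26 to 5.36 CPM in HuRm-/- mice, without overlap (log2 fold change 1.52 ± 0.35 SE, adjusted p = 0.0553).

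Slow-fibre genes were higher and fast-fibre genes lower as lists, although 0 members of either were called. Of 14 slow-fibre genes, 8 were higher at an unadjusted p under 0.05 and 0 were lower, beside 7.44% and 7.38% of all genes. The same shares are the comparison for every list count below from this fit in running females. A count near them is no result about its list. The median log2 fold change of the slow-fibre genes was 0.34 against 0.01 over all genes. Tnnc1, the slow and cardiac troponin C, ranged from 119 to 185 CPM in controls (median 145) and from 157 to 278 CPM in HuRm-/- mice (median 234), with a log2 fold change of 0.59 ± 0.21 (SE; adjusted p = 0.162). Of the HuRm-/- mice, 5 were above every control at Tnnc1, and the same number was above at Myl2, the slow regulatory light chain (log2 fold change 0.41), at Tnnt1, slow troponin T (0.43), and at Myh7, the slow myosin heavy chain (0.35). Myh7 had medians of 100.5 CPM in controls and 130 CPM in HuRm-/- mice. Atp2a2, the slow-fibre calcium pump SERCA2, had a log2 fold change of 0.33 and medians of 147 and 186 CPM. The Tnnc1 region is shared with Nisch, and their reads cannot be separated here.

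Of 16 fast-fibre genes, 9 were lower at an unadjusted p under 0.05 and 0 were higher, beside 7.38% and 7.44% of all genes. Their median log2 fold change was -0.18, and the 9 include Myl1, the gene whose Mlc1f promoter drives the Cre. Myh4, the myosin heavy chain of the fastest fibres, ranged from 24900 to 31580 CPM in controls (median 26130) and from 19540 to 25520 CPM in HuRm-/- mice (median 22830), and 5 of 7 were below every control. Its log2 fold change was -0.27 ± 0.06 (SE; adjusted p = 0.0562). Tnnt3, fast troponin T, had medians of 14780 and 12430 CPM (log2 fold change -0.24, adjusted p = 0.0888). Tnnc2, fast troponin C, did not overlap, ranging from 8622 to 9919 CPM in controls and from 7681 to 8363 CPM in HuRm-/- mice (log2 fold change -0.21, adjusted p = 0.169). These are small differences at very abundant messages, and Myl1 had the largest of those named. The mean log2 CPM of the fast-fibre list lay between 11.29 and 11.44 in controls and between 11.11 and 11.33 in HuRm-/- mice, with 6 of 7 below every control. The mean of the slow-fibre list lay between 6.61 and 7.08 in controls and between 6.79 and 7.24 in HuRm-/- mice, with 5 of 7 above every control.

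**Figure D2:**
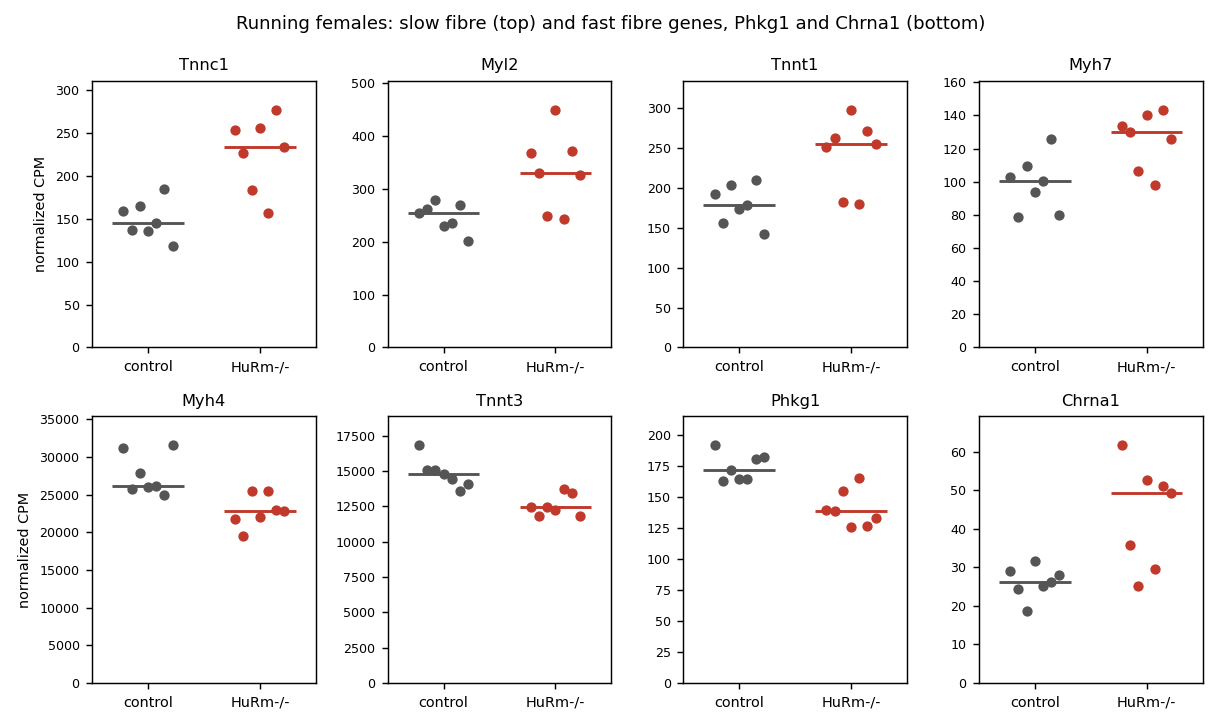
Normalised CPM (vertical axes from 0) of slow-fibre genes (top row) and of the fast-fibre genes Myh4 and Tnnt3, of Phkg1 and of Chrna1 (bottom row) in 7 control (grey) and 7 HuRm-/- (red) running females, with 1 point per mouse and a line at the median. Of the HuRm-/- mice, 5 are above every control at Tnnc1, and Chrna1 shows 3 HuRm-/- mice between 25.1 and 35.7 CPM and 4 between 49.4 and 61.8 CPM.

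Genes of glycogen synthesis and breakdown, counted together, and genes of glycolysis were lower on balance. Of 18 glycogen genes, 6 were lower and 1 was higher at an unadjusted p under 0.05, beside 7.38% and 7.44% of all genes. Their median log2 fold change was -0.16. Besides Phkg1, the lower members included Phka1, the regulatory alpha subunit of muscle phosphorylase kinase, which ranged from 249 to 346 CPM in controls (median 268) and from 179 to 290 CPM in HuRm-/- mice (median 207). Its log2 fold change was -0.34 ± 0.11 (SE; adjusted p = 0.13), and 5 of 7 HuRm-/- mice were below every control. Of 27 glycolytic genes, 5 were lower and 0 were higher, with a median of -0.15. Aldoa, the muscle aldolase, ranged from 6647 to 8701 CPM in controls and from 5353 to 7556 CPM in HuRm-/- mice (log2 fold change -0.23, adjusted p = 0.157). Pfkm, the muscle phosphofructokinase that sets the pace of glycolysis, had a log2 fold change of -0.16 and medians of 1146 and 1006 CPM. Pfkfb4, an enzyme that makes and removes the activator of phosphofructokinase, had the largest difference of those named, at -0.53 ± 0.14 (SE; adjusted p = 0.0737), with medians of 13.1 and 8.84 CPM.

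Among genes of fuel selection, 4 pyruvate dehydrogenase genes were lower, and fatty acid genes passed no more often than genes at large. The pyruvate dehydrogenase list had 4 of 14 members lower and 1 higher at an unadjusted p under 0.05, beside 7.38% and 7.44% of all genes. The higher member was Pdk4, the kinase that shuts pyruvate dehydrogenase, with a log2 fold change of 1.13 ± 0.46 (SE; adjusted p = 0.224). Pdk4 ranged from 21.57 to 208 CPM in controls and from 34.1 to 208 CPM in HuRm-/- mice, so the ranges coincided at the top although the medians were 27.8 and 113 CPM. Lower members included Pdp1, the opposing phosphatase (log2 fold change -0.33), and Mpc2, a subunit of the mitochondrial pyruvate carrier (-0.19). Of 35 fatty acid uptake and oxidation genes, 2 were higher and 1 was lower, shares below those of all genes, with a median of -0.01. Ucp3, a mitochondrial carrier induced by fatty acids, had a log2 fold change of 0.63 (adjusted p = 0.239) with ranges of 17.6 to 54.1 CPM in controls and 16.6 to 57.1 CPM in HuRm-/- mice.

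Of 54 PPAR signalling genes, 8 were higher and 2 were lower, with a median log2 fold change of 0.03, and the higher members included genes of fat tissue. Angptl4, a secreted inhibitor of lipoprotein lipase and a PPAR target, had medians of 1.81 and 10.9 CPM (log2 fold change 1.69 ± 0.55 SE, adjusted p = 0.139), and 1 control reached 20.3 CPM, above every HuRm-/- mouse. Pck1, the gluconeogenic and glyceroneogenic carboxykinase that is also an adipocyte marker, had medians of 2.64 and 7.81 CPM (log2 fold change 1.48, adjusted p = 0.0945). Rxrg, the retinoid X receptor of muscle, was 1 of the 2 lower members, with medians of 33.7 and 22.9 CPM (log2 fold change -0.45, adjusted p = 0.0727). Rxrg repeated the arrangement of Myl1, at 28.8 to 35.8 CPM in HuRm-/- mice 10, 3 and 7 and at 16.8 to 22.9 CPM in the other 4.

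In the insulin signalling and glucose uptake list, 3 of 30 genes were higher and 2 were lower, near the shares of all genes (7.44% and 7.38%). The median log2 fold change of the list was -0.03. Slc2a4, the insulin-regulated glucose transporter GLUT4, ranged from 213 to 319 CPM in controls and from 221 to 294 CPM in HuRm-/- mice (log2 fold change -0.03, adjusted p = 0.901). Prkab2, the muscle beta subunit of the energy sensor AMPK, had a log2 fold change of -0.42 ± 0.10 (SE; adjusted p = 0.0642). It was at 192.3, 191.3 and 231.3 CPM in HuRm-/- mice 10, 3 and 7 and between 137.9 and 155 CPM in the other 4, against a control range of 190 to 275 CPM.

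Respiratory chain genes were lower by a small amount as a list. Of 79 nuclear-encoded respiratory chain genes, 13 were lower and 0 were higher at an unadjusted p under 0.05, beside 7.38% and 7.44% of all genes. Their median log2 fold change was -0.09. Ndufs6, a complex I subunit, ranged from 263 to 300.2 CPM in controls (median 280) and from 203 to 295 CPM in HuRm-/- mice (median 231), with a log2 fold change of -0.23 (adjusted p = 0.178). Of the HuRm-/- mice, 5 were below every control at Ndufs6, which overlaps Mrpl36. Of 8 mitochondrially encoded genes, 0 passed an unadjusted p under 0.05 (median -0.10). Among 18 mitochondrial regulators, 1 was higher and 1 was lower, and Ppargc1a, the coactivator of mitochondrial biogenesis, had a log2 fold change of -0.12 (adjusted p = 0.566) with medians of 50.5 and 45.9 CPM.

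Excitation-contraction coupling genes had 6 of 27 members lower and 1 higher, beside 7.38% and 7.44% of all genes, with a median log2 fold change of -0.10. Camk2a, a calcium/calmodulin-dependent kinase, did not overlap, with 307 to 370 CPM in controls and 239 to 305 CPM in HuRm-/- mice (log2 fold change -0.28 ± 0.07 SE, adjusted p = 0.0593). Camk2a is also a marker in the brain list. The higher member was Sln, which encodes sarcolipin, an inhibitor of the calcium pump, with medians of 5.43 and 8.88 CPM (log2 fold change 0.75, adjusted p = 0.145) and 5 of 7 HuRm-/- mice above every control. In the muscle mass and atrophy list, 5 of 26 were lower and 3 higher, with a median of -0.11. Fst, which encodes the myostatin antagonist follistatin, had medians of 6.15 and 12.5 CPM (log2 fold change 0.77 ± 0.21 SE, adjusted p = 0.0945). Mstn, which encodes myostatin, had medians of 53.8 and 45.0 CPM (log2 fold change -0.28, adjusted p = 0.338). Gadd45a, a stress gene induced in denervated muscle, had medians of 16.4 and 11.8 CPM (log2 fold change -0.55, adjusted p = 0.0997). Smox, the spermine oxidase, was the 1 lower member of 12 polyamine genes, with 39.2 to 67.5 CPM in controls and 18.98 to 40.7 CPM in HuRm-/- mice (log2 fold change -0.89 ± 0.25 SE, adjusted p = 0.0987).

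Among 15 neuromuscular junction genes, 1 was higher and 1 was lower (median log2 fold change 0.10), and the higher was Chrna1, at 0.68 ± 0.18 (SE; adjusted p = 0.0865). Of 16 myogenic and satellite cell genes, 2 were higher and 1 was lower (median 0.08), and Pax7, the satellite cell factor, had medians of 3.23 and 5.25 CPM (log2 fold change 0.58, adjusted p = 0.176).

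Of 25 reported HuR target messages, 6 were higher and 1 was lower at an unadjusted p under 0.05, beside 7.44% and 7.38% of all genes, and their median log2 fold change was 0.04. With the fibroblast marker mean as a covariate 2 were higher, and without controls 27 and 28, which had the highest brain marker means, 3 were. Among all genes, 1086 and 1698 passed an unadjusted p under 0.05 in these fits, in place of 2006. Mmp9, a matrix metalloproteinase, had medians of 1.96 and 4.17 CPM (log2 fold change 1.14 ± 0.29 SE, adjusted p = 0.0678). Ccnd1, the G1 cyclin D1, had medians of 21.2 and 27.4 CPM (log2 fold change 0.43, adjusted p = 0.142), and Ptma, which encodes prothymosin alpha, had 55.0 and 63.1 CPM (0.25, adjusted p = 0.209). Of 24 AU-rich element binding proteins, 3 were lower and 1 was higher, with a median of -0.05. Mbnl1, a splicing regulator of muscle, ranged from 531 to 628 CPM in controls and from 462 to 545 CPM in HuRm-/- mice (log2 fold change -0.20, adjusted p = 0.13), and Celf2, its splicing counterpart, also had -0.20 (adjusted p = 0.138). The ATTTA motif was in the 3′ UTR of 5 of 9 of the 10 lower genes of smallest p that have a 3′ UTR and of 8 of 9 of the 10 higher genes, beside 71.6% of all tested genes.

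Collagens were higher as a list, without a called member. Of 33 tested, 14 were higher at an unadjusted p under 0.05 and 0 were lower, beside 7.44% and 7.38% of all genes. Their median log2 fold change was 0.30. Col15a1, a basement membrane collagen, did not overlap, with 19.1 to 27.4 CPM in controls and 30.4 to 39.5 CPM in HuRm-/- mice (log2 fold change 0.42 ± 0.10 SE, adjusted p = 0.0553). Col6a2, of the collagen VI network around fibres, had medians of 42.5 and 55.2 CPM (log2 fold change 0.46, adjusted p = 0.0779). Col3a1, a fibrillar collagen, had medians of 197 and 298 CPM (0.49, adjusted p = 0.0993), and Col4a1, of the basement membrane, had 94.4 and 100.8 CPM (0.22, adjusted p = 0.209). The mean log2 CPM of the collagen list was above every control in 6 of 7 HuRm-/- mice.

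Markers of fibroblasts, macrophages and leukocytes, Schwann cells and adipocytes were higher in the same mice. Lists of some other cells were not. The capillary and angiogenic list had 0 of 22 higher at an unadjusted p under 0.05 (median log2 fold change -0.11). The liver and brain lists had medians of -1.22 and -0.70. Of 10 fibroblast markers 9 were higher (median log2 fold change 0.41), of 16 macrophage and leukocyte markers 10 (0.54), of 11 Schwann cell markers 5 (0.29) and of 12 adipocyte markers 6 (0.44), and 0 of any of these were lower, at an unadjusted p under 0.05. Over all genes, 7.44% were higher and 7.38% were lower at that limit. In bulk tissue, a larger number of cells of a type and more RNA per cell cannot be told apart. The sums that follow were scaled by library total alone. The summed level of the fibroblast markers was 1746 to 2660 CPM in controls and 2296 to 3333 CPM in HuRm-/- mice, and that of the macrophage and leukocyte markers was 156.5 to 333 CPM and 245.1 to 423.3 CPM. The summed adipocyte markers were at 446.7 to 735.6 CPM in controls and 519.3 to 1009 CPM in HuRm-/- mice, and the mean of this list was above every control in 6 of 7. The summed Schwann cell markers were at 138 to 277.1 CPM and 230.7 to 345.9 CPM. In none of these lists was every marker clear of the control range.

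Examples were Adipoq, the adipocyte hormone adiponectin, with medians of 15.9 and 25.9 CPM (log2 fold change 0.86, adjusted p = 0.133), and C1qc, a complement component made by macrophages, with medians of 9.69 and 17.1 CPM (0.76, adjusted p = 0.145). H2-Aa, an MHC class II chain of antigen-presenting cells, had a log2 fold change of 0.65, and Ctss, the lysosomal cathepsin S of macrophages, had 0.66. Pmp22, a myelin and fibroblast protein among the 10 higher genes, ranged from 40.2 to 68.9 CPM in controls and from 63.8 to 97.5 CPM in HuRm-/- mice (0.62), and Mbp, myelin basic protein, had medians of 37.8 and 61.1 CPM (0.50). The 8 tendon markers had a median of 0.33 with 0 past an unadjusted p under 0.05, and the skeletal muscle markers had 2 of 10 lower with a median of -0.12.

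**Figure D3:**
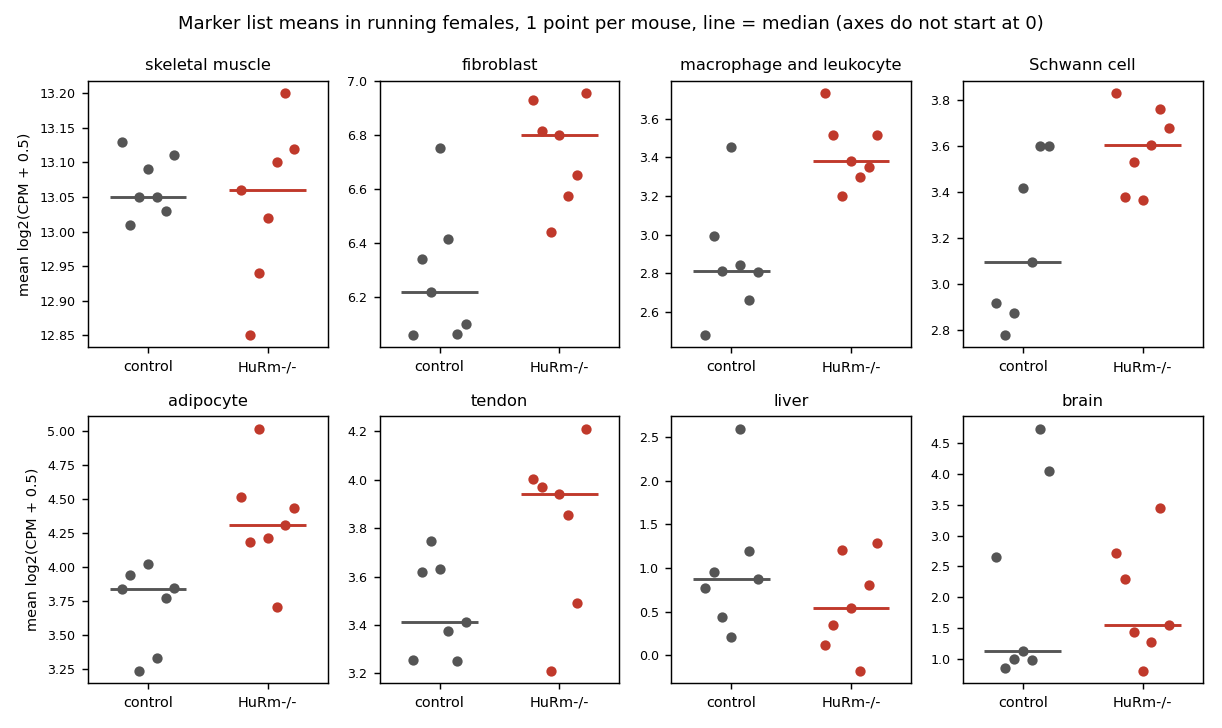
Mean log2(CPM + 0.5) of 8 marker lists (vertical axes do not start at 0) in 7 control (grey) and 7 HuRm-/- (red) running females, with 1 point per mouse and a line at the median. CPM here was scaled by library total alone, without the TMM factor. The fibroblast, macrophage, Schwann cell and adipocyte means lie higher in HuRm-/- mice with overlap, and a few controls stand high in the liver and brain lists.

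The marker levels moved with several of the lists above, and their part in those lists was not tested. The fibroblast marker mean was used as a covariate, chosen after seeing the data. In that fit 1 collagen was higher in place of 14, and 5 slow-fibre genes in place of 8. Lower were 2 fast-fibre genes in place of 9 and 0 respiratory chain genes in place of 13. The genes passing an unadjusted p under 0.05 in either direction also fell, to 1086 of 13531 in place of 2006. A fall in count was therefore not particular to these lists. The fibroblast markers include Col1a1, Col1a2 and Col3a1, which the collagen list also counts. The fall in the collagen count was therefore partly built in, and the rises of the fibroblast and collagen lists are not separate results. With the macrophage marker mean, 3 collagens and 9 slow-fibre genes were higher and 3 fast-fibre genes were lower. With the adipocyte marker mean these counts were 9, 9 and 3. Among all genes, 1449 passed an unadjusted p under 0.05 with the macrophage mean and 1522 with the adipocyte mean. The slow-fibre median stayed between 0.317 and 0.502 over 20 alternative fits. Without the 3 controls of low depth, 13 collagens and 3 slow-fibre genes were higher (slow-fibre median 0.317). In that fit 8 fast-fibre genes and 3 respiratory chain genes were lower, and 2063 of 14181 genes passed an unadjusted p under 0.05. In these fits between 3 and 6 glycogen genes and between 1 and 5 glycolytic genes were lower, and these counts do not say whether they were the same genes.

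Liver markers stood high in 1 control, and brain markers in 2 controls and in 1 HuRm-/- mouse. The summed liver markers reached 269 CPM in controls (mouse 26) against a control median of 68.4 CPM and a HuRm-/- range of 38.0 to 113.5 CPM, and Alb, which encodes albumin, had a log2 fold change of -1.60 ± 1.19 (SE; adjusted p = 0.558). The brain marker mean reached 4.73 on the log2 scale in controls (mice 27 and 28 were highest) and 3.45 in HuRm-/- mice (mouse 21 was highest). Of the 8 tested brain markers, 1 was lower, and 0 of 26 liver markers and 0 of 5 erythroid markers passed an unadjusted p under 0.05. These counts depended on the fit, since 20 liver markers were lower with the fibroblast covariate (median log2 fold change -2.95) and 6 of 9 brain markers were lower without the 3 controls of low depth. Without the controls 27 and 28, 1 gene was called in place of 6. The remaining marker lists (brown adipocyte, islet, keratinocyte and heart) had 3 or fewer tested members each.

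Of 25 immediate early genes, 6 were higher and 0 lower at an unadjusted p under 0.05, with a median log2 fold change of 0.22. Egr2, an early growth response factor, had medians of 0.441 and 1.06 CPM on 1 to 25 counts a mouse (log2 fold change 1.46 ± 0.44 SE, adjusted p = 0.108). Fos and Junb, components of the transcription factor AP-1, had 0.93 and 0.53 (adjusted p = 0.264 and 0.196). Without the controls 27 and 28, 1 immediate early gene was higher in place of 6. In that fit 1698 of all genes passed an unadjusted p under 0.05, in place of 2006. Glucocorticoid-responsive genes had 4 higher and 4 lower of 22 (median 0.05). Of 20 circadian clock genes 2 were lower (median -0.17). That count was 8 without the 3 controls of low depth and 0 with the fibroblast covariate. Among all genes, 2063 and 1086 passed an unadjusted p under 0.05 in those fits. Per2, a clock repressor, had medians of 4.70 and 2.43 CPM (log2 fold change -0.82, adjusted p = 0.407). The capillary and angiogenic list had 1 of 22 lower (median -0.11), the heat shock list 0 of 28 in either direction (0.03), cytosolic ribosomal proteins 3 of 82 lower and 0 higher (0.00), and lysosome and autophagy genes 4 of 44 higher and 2 lower (0.03).

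**Figure D4:**
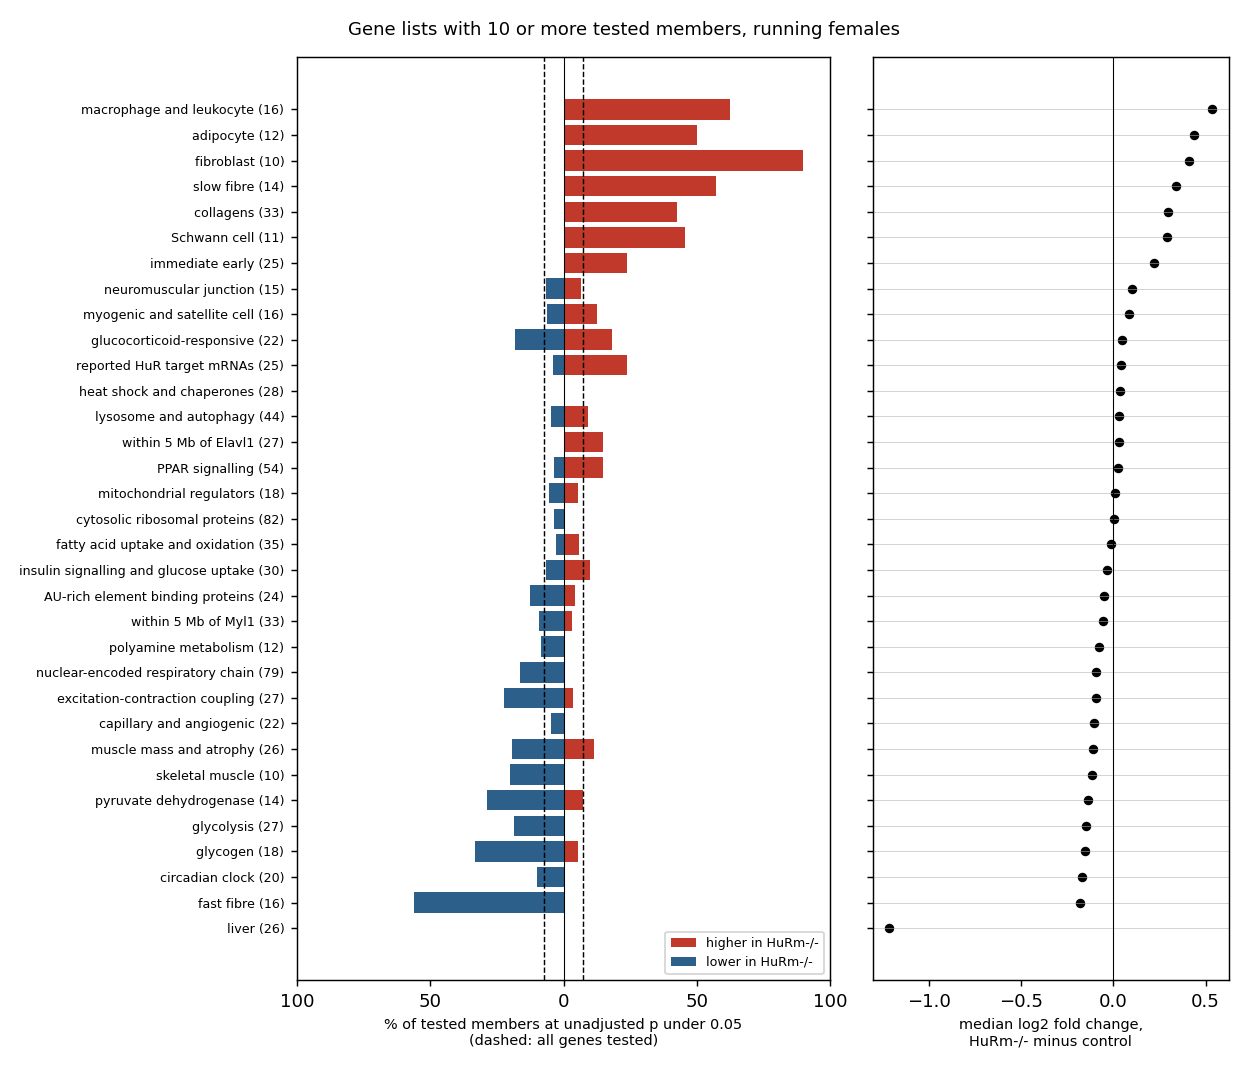
Left, the percent of tested members of each gene list that were higher (red) or lower (blue) in HuRm-/- running females at an unadjusted p under 0.05, with dashed lines at the shares over all genes (7.44% and 7.38%) and the number tested in brackets. Right, the median log2 fold change of each list, highest for the macrophage list at 0.54 and lowest for the liver list at -1.22.

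Genes near Myl1, whose Mlc1f promoter drives the Cre, and near the floxed Elavl1 were also counted. Of 33 tested genes within 5 Mb of Myl1, 3 were lower and 1 was higher at an unadjusted p under 0.05, and the lower included Zdbf2. Of 27 within 5 Mb of Elavl1, 4 were higher and 0 were lower. Over all genes, 7.44% were higher and 7.38% were lower at that limit, and the counts near Myl1 were close to or below these shares. An effect of either locus on its neighbours was not tested.

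The same label comparison in other mice of the series gives the context. In running males, 408 genes were called (139 higher and 269 lower). The test of a difference between the sexes called 0 genes in limma (1178 at an unadjusted p under 0.05, 0 by the edgeR quasi-likelihood test and 4 by DESeq2), with the lowest adjusted p at 0.162. In females with locked wheels 0 genes were called (1770 at an unadjusted p under 0.05), and the test of a difference between running and locked females called 0 genes (1288 at an unadjusted p under 0.05, 0 by quasi-likelihood and 13 by DESeq2), with the lowest adjusted p at 0.256. The separate counts of called genes therefore do not show that the label effect differs by sex or by wheel.

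All 6 called genes were also lower in running males, where Gm37829 (log2 fold change -0.49, limma adjusted p = 0.00481), Ccdc91 (-0.37, adjusted p = 0.0129) and Aes (-0.34, adjusted p = 0.0374) were called, while Selenow had -0.20 (adjusted p = 0.201), Asb12 -0.15 and Zdbf2 -0.31. In locked females 3 of the 6 were lower, with log2 fold changes of -0.22 for Ccdc91, -0.24 for Aes and -0.16 for Gm37829, while Selenow, Asb12 and Zdbf2 had 0.10, 0.11 and 0.10. Over all genes lower in running females, 59.3% were lower in running males and 54.7% in locked females. B230369F24Rik was similar in all 3, at 1.52, 1.45 in running males (adjusted p = 0.00481) and 1.41 in locked females. Myl1 had -0.69 in running males (adjusted p = 0.0139), and Chrna1 had 0.92 there (adjusted p = 0.00713). In locked females Myl1 had -0.44 and Chrna1 had 0.42. Elavl1 had 0.44 in running males (adjusted p = 0.0495) and 0.11 in locked females.

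**Figure D5:**
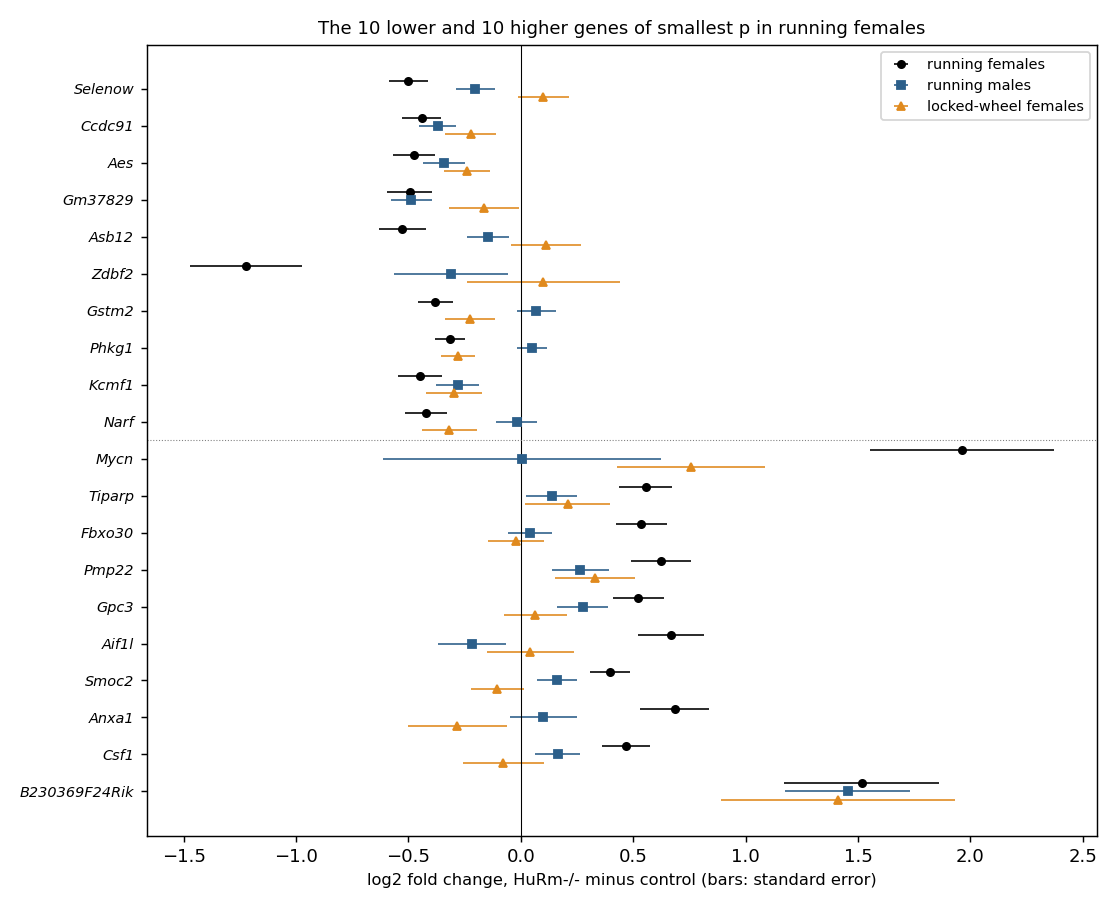
Log2 fold change (HuRm-/- minus control, horizontal axis) with its standard error for the 10 lower and 10 higher genes of smallest p in running females (black), beside running males (blue) and locked-wheel females (orange). Gm37829, Ccdc91, Aes and B230369F24Rik keep their direction in all 3 sets of mice, as do Kcmf1, Narf, Mycn, Tiparp, Pmp22 and Gpc3. Selenow, Asb12 and Zdbf2 lie above 0 in locked females.

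Fibre-type lists in those mice were given by the same counts. The slow-fibre list had 7 of 14 higher and 0 lower in running males (median log2 fold change 0.30) and 7 higher and 0 lower in locked females (0.37). The fast-fibre list had 2 lower and 2 higher in running males and 0 lower and 1 higher in locked females. The respiratory chain list had 55 of 79 lower and 0 higher in running males (median -0.19). In running males 4 collagens were higher and 0 lower, and 1 fibroblast marker and 0 macrophage markers were higher. In locked females 23 of 79 respiratory chain genes were lower and 1 was higher (median -0.10). Of the collagens there, 2 were higher and 1 was lower (median -0.09). Locked females had 0 fibroblast markers higher or lower, and 0 macrophage markers higher and 2 lower. Over all genes in running males, 1127 of 13531 were higher and 1305 were lower at an unadjusted p under 0.05. Over all genes in locked females, 820 of 13486 were higher and 950 were lower at that limit. Neither the difference between the sexes nor that between running and locked females was tested for lists.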

How the data were processed

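RNA from the gastrocnemius of 56 mice was sequenced, and the authors deposited 1 table of whole-number counts per gene (15539 genes), of which 14 columns belong to the comparison. The labels name a 3′ mRNA library kit with 50 bp forward reads, whereas the study's methods describe a stranded total RNA kit, so gene length was not corrected for. The submitters' processing notes list R 4.0.3, edgeR 3.38.4 and the builds GRCm38 and mm10. The aligner, counter and strand setting are not given in the sources used here. GENCODE M21 of GRCm38 matched 15503 gene identifiers and supplied positions.

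Groups came from the labels. Counts of the 28 running mice were filtered with filterByExpr and normalised by TMM in edgeR 4.0.16, then fitted with voom and limma 3.58.1 (R 4.3.3), with 1 coefficient a group and no covariate. The limit for a call was 0.05 on the Benjamini-Hochberg adjusted p. The sex difference was tested in this fit, and the wheel difference in the 28 female mice. The scripts were first tested on simulated data with known changes. Replicates are separate mice by label. The p-values and intervals rest on the spread within groups pooled over the 28 running mice, males included, and not on the 14 females alone. For Elavl1 the SE was 0.13 in this fit and 0.0724 in a fit of the 14 females alone.

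The genes named were Elavl1, Myl1, members of the lists and the 10 of smallest p in each direction, with a mean of at least 10 counts over the 14 mice. The comparison, the members and the lists were chosen with earlier results of these data known. Some named-gene results are not reported here. Lists are given by counts at an unadjusted p under 0.05 and by medians. Marker means use log2(CPM + 0.5), and marker sums and means use CPM scaled by library total alone.

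Alternatives were edgeR's quasi-likelihood test, DESeq2 1.42.0, other scalings, filters, weights, covariates and sets of mice, and each mouse left out in turn. Those on fibroblast, macrophage and brain markers, low-depth controls, brain-marker controls, thinned counts and an adjusted p of 0.1 were chosen after seeing the data. No mouse pair matched within sampling noise (42 pairs, chi-square per degree of freedom 3.69 to 39.9).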

Additional observations from a re-analysis of the deposited data

Results flagged for a closer look

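In groups of 7 mice, 176 sets of values were checked for a lowest or highest mouse that stood apart from the rest by more than Dixon's 95% limit. Chance flags about 1 group in 20, and 14 were flagged, 9 of them in controls and 5 in HuRm-/- mice.

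Among HuRm-/- mice, Zdbf2 was lowest in mouse 10 at 0.4096 CPM, with the next mouse at 0.8383 CPM. Narf was highest in mouse 10 at 72.43 CPM, inside the control range. Ccnd1 was highest in mouse 7 at 38.53 CPM, as was Pck1 at 16 CPM. Ctss was highest in mouse 2 at 22.05 CPM.

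Among controls, Phka1 was highest in mouse 28 at 346 CPM and Ppargc1a in mouse 9 at 67.12 CPM. Control mouse 1 was highest at Aldoa, at 8701 CPM, and at Pax7, at 5.807 CPM. Control mouse 25, a library of low depth, was highest at Fst, at 14.2 CPM, and at C1qc, at 20.62 CPM. Pck1 was highest in control mouse 5 at 10.78 CPM. Control mouse 26 was highest at Alb, at 77.26 CPM, and in the mean of the liver markers, at 2.597 on the log2 scale.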

How the results depend on the processing

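The 6 called genes of running females were not a stable count. It was 6 with the quasi-likelihood test (2 higher and 4 lower, 4 of them shared), 201 with DESeq2 (66 higher and 135 lower), 30 with limma trend, 16 with DESeq2 size factors, 8 with upper-quartile scaling, 1 without a filter, 40 with at least 10 counts in every mouse, 50 with quality weights, 1 above 1.5-fold, 0 with all 56 mice in the fit, 70 with the 14 mice alone and 53 with thinned counts. With marker means as covariates it was 51 (liver), 2 (adipocyte), 2 (fibroblast), 4 (macrophage) and 2 (brain), and with a covariate for mouse numbers above 20 it was 172. It was 21 without the 3 controls of low depth, 1 without the 2 controls of high brain markers and 230 at an adjusted p of 0.1. Leaving out 1 mouse gave 0 to 157, with 0 without control 1 or 5 or HuRm-/- mouse 2, 22 or 8, 1 without control 26, 27 or 28 or HuRm-/- mouse 21, 10 without control 9, 37 without control 25, and 19, 97 and 157 without HuRm-/- mice 3, 7 and 10. Calls held in 24 of 34 settings for Selenow, 18 of 34 for Ccdc91, Gm37829 and Asb12, 16 of 34 for Aes and 12 of 33 for Zdbf2. The cause of these changes was not tested. With the replicate block the count was 6, and it changed no call count. Mice of the 2 groups share 0 numbers, and across sexes the correlations of 11 same-numbered pairs ran from -0.159 to 0.192 with 2 best matches, so the numbers do not pair mice. No paired analysis was possible for the wheel difference because all female numbers are unique. The sex difference called 4 genes with DESeq2, 1 with limma trend, 2 with all 56 mice, 4 with the adipocyte covariate and 0 to 2 with 1 mouse left out (2 without male control 28). The wheel difference called 13 with DESeq2 and 0 with any 1 mouse left out. Elavl1 changed sign at sizes near 0, to -0.0013 with DESeq2, -0.000402 with DESeq2 size factors and between -0.027 and 0.037 with 1 mouse left out. Also reversed were Ctss (-0.024 with the fibroblast and -0.022 with the macrophage covariate), C1qc (-0.11, fibroblast), H2-Aa (-0.028 and -0.026) and Slc2a4 (-0.082 to 0.023 with 1 mouse left out, above 0 without control 26). H2-Aa is itself a member of the macrophage marker mean, so its reversal with that covariate was partly built in. Low counts limit Zdbf2, Mycn and Egr2.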
